A study of Homo sapiens with 9 samples.

Results

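The Tribbles pseudokinases are encoded by 3 human genes, TRIB1, TRIB2 and TRIB3, and their transcripts were followed here in 22Rv1 cells carrying hairpins against CHD9. The 3 genes were found by symbol among the 67071 gene identifiers of the count table, 1 identifier each, and all 3 were among the 16855 genes that had enough counts to be tested. They were chosen by values measured in these same libraries, in which TRIB2 already stood out between CHD9 hairpin and control cells, so their differences from the control are given as a description with standard errors and no p-value. The levels with both hairpins were also known at that choice, which limits the tests between the hairpins for all 3 genes.

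22Rv1 is a human prostate carcinoma cell line of epithelial origin. Polyadenylated RNA was sequenced from 9 libraries of wild-type 22Rv1 cells in 3 groups of 3, with a short hairpin RNA against GFP as the control (shGFP), a first hairpin against CHD9 (shCHD9_1, hairpin 1) or a second one (shCHD9_2, hairpin 2). The design contrasts control knockdown with knockdown of CHD9, a chromodomain helicase of the chromatin remodellers, within a series about RNA methylation by METTL3. The labels do not say whether the 3 libraries of a group came from separate cultures, how long the hairpins were expressed or whether a group was 1 clone, so a p-value here covers the spread among these libraries alone, which may be technical.

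Tribbles proteins have the fold of a protein kinase but bind ATP weakly or not at all. They act as adaptors: a motif in the C-terminal tail recruits the ubiquitin ligase COP1 while the pseudokinase domain holds a substrate such as C/EBPα, and another tail motif binds MEK1. TRIB1 and TRIB2 are best known for degrading C/EBPα in leukaemia, TRIB2 also for restraining FOXO factors in melanoma and for lineage change in prostate cancer, and TRIB3 as a stress-induced gene downstream of ATF4 and CHOP that binds AKT.

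Library totals ranged from 18911142 to 31968602 counts. Values are CPM, counts scaled to a fixed library total, with totals adjusted by the trimmed mean of M-values (TMM), and tests are edgeR quasi-likelihood tests over all 16855 genes with Benjamini-Hochberg adjustment, called at an adjusted p under 0.05. The targeted gene CHD9 measured 22.8, 20.6 and 23.2 CPM in shGFP, 14.8, 16.7 and 14.9 CPM with hairpin 1, and 18.4, 18.8 and 19.3 CPM with hairpin 2. No CHD9 hairpin library overlapped the shGFP libraries, and hairpin 1 was the lower of the pair. CHD9 fell by 0.52 (SE 0.07) on the log2 scale with hairpin 1 (adjusted p = 7.2e-08) and by 0.24 (SE 0.07) with hairpin 2 (adjusted p = 0.0060). The second call was lost without shGFP replicate 3, where the log2 change was -0.20. CHD9 was lower with hairpin 1 than with hairpin 2 by a log2 difference of -0.28 (adjusted p = 0.0024). Much of the CHD9 transcript was still present, so each comparison is between cells with more of it and cells with less. Both hairpins are compared with the same 3 shGFP libraries, and their contrasts are therefore not independent of each other.

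**Figure D1:**
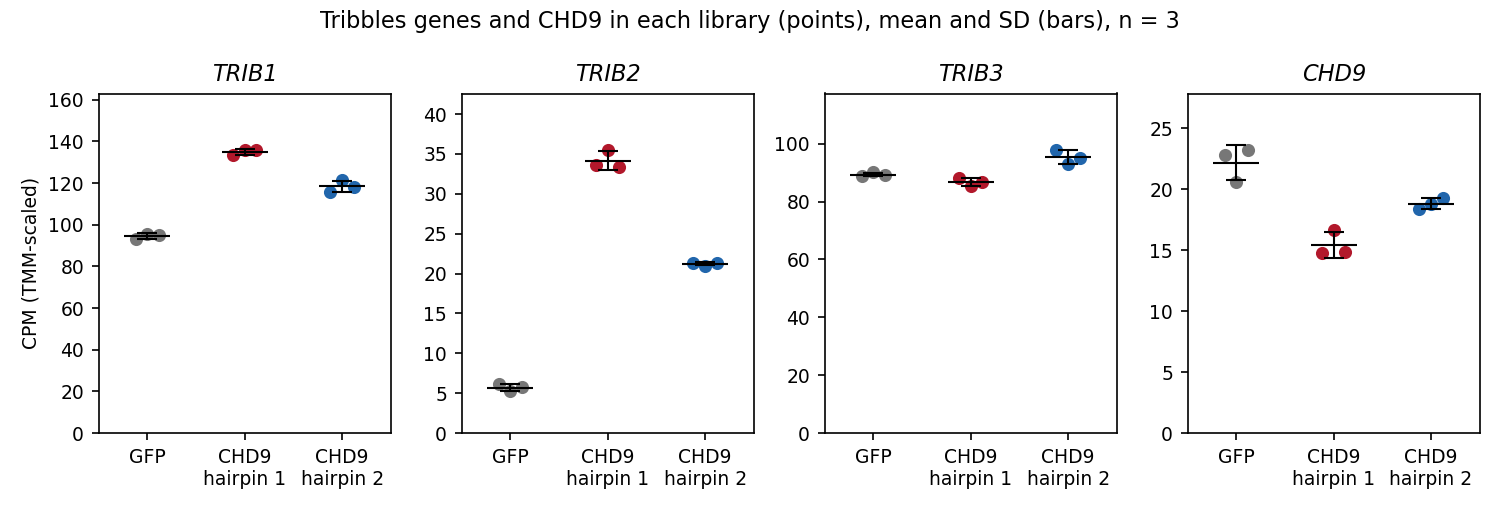
TMM-scaled CPM of TRIB1, TRIB2, TRIB3 and the targeted gene CHD9 in each of the 9 libraries, with a linear axis from 0 in each panel; points are libraries, and bars give the mean and SD of each group (n = 3). TRIB2 went from 5.25 to 6.16 CPM in shGFP to 33.4 to 35.5 CPM with hairpin 1, while TRIB3 stayed between 85.4 and 97.8 CPM in all 9 libraries.

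TRIB2 (ENSG00000071575.11) lies on chromosome 2, plus strand, at 12716889 to 12742734 of GRCh38, with 4 transcripts and 4588 exonic bases in the GENCODE 29 annotation. Of the family it is the member whose level differed by a multiple between control and CHD9 hairpin cells. The sequence just upstream of its first annotated exon is shown because TRIB2 is the gene on which the results turn and because the window holds letters of a FOXO site, the factor family that TRIB2 restrains. The run is taken from the RefSeq promoter table (GRCh38.p14), chr2:12716686-12716888, plus strand, 203 bases, of which 79.8% are G or C. Capitals mark the reverse complement of the FOXO motif GTAAACAA at the left end and a pair of overlapping SP/KLF-type GC boxes (GGGGCGGGG) further right.

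TRIB2 upstream: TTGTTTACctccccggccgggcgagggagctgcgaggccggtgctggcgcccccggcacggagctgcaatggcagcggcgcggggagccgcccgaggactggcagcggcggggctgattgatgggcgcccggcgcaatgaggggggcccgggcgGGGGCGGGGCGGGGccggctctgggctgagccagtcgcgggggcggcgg

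The FOXO letters begin 250 bases before the RefSeq transcript start at 12716936, and the GC boxes begin 96 and 91 bases before it. Over 35116 windows of the same table, each running from 250 bases before a start to 50 after it and searched on both strands, 0.954% hold GTAAACAA and 15.7% hold GGGGCGGGG. Letters for C/EBP-ATF composite sites (TGATGNAA, in 3.62% of windows), NF-Y (ATTGG, 34.6%), TCF factors (ATCAAAG, 2.62%), E-boxes (CACGTG, 7.26%) and cAMP response elements (TGACGTCA, 1.85%) did not occur in the TRIB2 window. None of the 7 motifs occurred in the windows of the 3 RefSeq starts of TRIB3, and the window of TRIB1 was not analysed here. At 77.3% G or C, the whole TRIB2 window was above 94.1% of windows, and those of TRIB3 held 75.3% to 77.0%. These are matches of letters, and no binding or chromatin was measured here.

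TRIB2 transcripts were scarce in control cells, at 117, 119 and 150 counts, or 6.16, 5.25 and 5.74 CPM. With hairpin 1 the 3 libraries held 678, 798 and 895 counts, or 33.6, 35.5 and 33.4 CPM. With hairpin 2 they held 539, 681 and 452 counts, or 21.4, 21.0 and 21.3 CPM. The 3 groups did not overlap: every hairpin 1 library was above every hairpin 2 library, and every hairpin 2 library was above every control. Group means were 5.72 ± 0.453, 34.2 ± 1.15 and 21.2 ± 0.202 CPM (SD, n = 3 each). The fitted TRIB2 level was 5.99-fold that of shGFP with hairpin 1 (log2 2.58, SE 0.08) and 3.72-fold with hairpin 2 (log2 1.90, SE 0.08). For the mean of both hairpins it was 4.72-fold (log2 2.24, SE 0.07), which placed TRIB2 at rank 11 from the highest of the 16855 genes, and at ranks 14 and 15 for hairpins 1 and 2. These ranks only describe the value, since the difference from shGFP entered the choice of the gene. In bulk RNA a higher share of cells with the transcript and more transcript per cell cannot be told apart.

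The contrast between the hairpins is not the one that singled TRIB2 out, and it was tested, although the levels with both hairpins were known when the gene was chosen. TRIB2 was 1.61-fold higher with hairpin 1 than with hairpin 2 (log2 difference 0.69, SE 0.06, edgeR adjusted p = 4.1e-12). This difference lay between 0.66 and 0.70 under 14 other settings, which included another scaling, the DESeq2 test, other filters and leaving out each library. The hairpin with the lower CHD9 level was thus the one with the higher TRIB2 level, although with 2 hairpins no dose relation can be tested.

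The TRIB2 locus holds 1 further annotated gene, the microRNA gene MIR3125, which lies inside TRIB2 on the same strand. It had 0 to 7 counts per library and was not tested. The nearest tested genes are far away. On the left LPIN1, a phosphatidate phosphatase, ends 889 kb from TRIB2, followed by GREB1, a hormone-responsive gene, and E2F6, and on the right LRATD1 begins 1890 kb away, followed by NBAS and DDX1. Of these 6 neighbours 2 were called higher, 2 lower and 2 did not pass in the mean of both hairpins. Over all genes tested, 22.3% were called higher and 23.2% lower. GREB1 rose by a log2 fold change of 0.39 (adjusted p = 3.6e-06) and LPIN1 by 0.25 (adjusted p = 4.7e-06) in the mean of both hairpins. LRATD1 went the other way, from 199 CPM in shGFP to 115 and 114 CPM, and fell by 0.79 on the log2 scale (adjusted p = 9.6e-27). The DDX1 call, a log2 fold change of -0.07, did not hold under the DESeq2 test, nor without shGFP replicate 2 (-0.08) or 3 (-0.06), hairpin 1 replicate 1 (-0.06) or 3 (-0.06), or hairpin 2 replicate 3 (-0.06).

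TRIB1 (ENSG00000173334.4, chromosome 8, plus strand, 125430321 to 125438405, 4138 exonic bases) encodes the member that pairs most closely with COP1 and C/EBPα in myeloid cells and that regulates hepatic lipid genes. It was an abundant transcript in control cells, at 93.1, 95.7 and 95.1 CPM. It measured 133, 136 and 136 CPM with hairpin 1 and 116, 121 and 118 CPM with hairpin 2. As for TRIB2, the 3 groups did not overlap and hairpin 1 gave the higher values, but the step was small. Group means were 94.7 ± 1.38, 135 ± 1.34 and 118 ± 2.73 CPM (SD, n = 3 each), so that replicates of a group differed by a few percent at most. The fitted level was 1.43-fold that of shGFP with hairpin 1 (log2 0.51, SE 0.03), 1.25-fold with hairpin 2 (log2 0.32, SE 0.03) and 1.34-fold in the mean (log2 0.42, SE 0.03). Between the hairpins TRIB1 was 1.14-fold higher with hairpin 1 (log2 difference 0.19, SE 0.03, edgeR adjusted p = 6.6e-06), and the difference was 0.17 to 0.21 under the 14 other settings. None of the 6 nearest tested genes was called higher in the mean of both hairpins, 3 were called lower and 3 did not pass. The shares over all genes were 22.3% higher and 23.2% lower. SQLE, squalene epoxidase of cholesterol synthesis, fell by 0.23 on the log2 scale (adjusted p = 5.6e-07). WASHC5, a subunit of the WASH complex, fell by 0.28 (adjusted p = 6.1e-08). The third, LRATD2, had a log2 fold change of -0.08 and lost its call under the DESeq2 test, without the low-count filter, and without shGFP replicate 2 (-0.07) or 3 (-0.08), hairpin 1 replicate 2 (-0.08) or 3 (-0.07), or hairpin 2 replicate 2 (-0.07). The closest neighbour, NSMCE2, a SUMO ligase of the SMC5/6 complex 63.2 kb away, measured 27.6, 27.5 and 23.9 CPM in shGFP, hairpin 1 and hairpin 2 and did not pass in the mean. With hairpin 2 alone NSMCE2 was called lower (log2 -0.20, adjusted p = 0.0064), and with hairpin 1 it did not pass.

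TRIB3 (ENSG00000101255.11, chromosome 20, plus strand, 362835 to 397559, 3434 exonic bases) is the stress-inducible member. It measured 88.8, 90.0 and 89.1 CPM in shGFP, 88.2, 85.4 and 86.7 CPM with hairpin 1 and 97.8, 92.9 and 95.2 CPM with hairpin 2. Every hairpin 1 library lay below and every hairpin 2 library above the control libraries, by small margins. Over all genes tested, the hairpin 1 libraries lay apart from those of hairpin 2 for 39.6%, so such separation is common. Group means were 89.3 ± 0.625, 86.8 ± 1.37 and 95.3 ± 2.45 CPM (SD, n = 3 each). The log2 difference from shGFP was -0.04 (SE 0.04) with hairpin 1 and 0.09 (SE 0.03) with hairpin 2, and 0.02 (SE 0.03) for their mean. TRIB3 was the only family member that was lower with hairpin 1 than with hairpin 2, by a log2 difference of -0.13 (SE 0.03, edgeR adjusted p = 0.0025), which ran from -0.15 to -0.12 under the 14 other settings. The genes around TRIB3 did not share its level. SOX12, a SoxC transcription factor 32.6 kb to the left, rose from 69.1 CPM in shGFP to 106 and 88.5 CPM (log2 fold change 0.49, adjusted p = 7.0e-16). RBCK1, a subunit of the linear ubiquitin ligase complex 9.94 kb to the right, fell by 0.38 on the log2 scale (adjusted p = 1.1e-13). Among all 6 neighbours of TRIB3, 3 were called higher and 2 lower, against 22.3% and 23.2% of all genes, and 1 did not pass. Of these calls 3 were weak. That of NRSN2 (log2 fold change 0.09) was lost without shGFP replicate 1 (0.08). That of TBC1D20 (-0.10) was lost under the DESeq2 test, without the low-count filter, and without shGFP replicate 2 (-0.09) or 3 (-0.09), hairpin 1 replicate 2 (-0.10) or 3 (-0.08), or hairpin 2 replicate 2 (-0.09). That of NRSN2-AS1 (0.15) was lost under the DESeq2 test, without the low-count filter, with the replicate block (0.15), and without shGFP replicate 1 (0.15) or 3 (0.08), hairpin 1 replicate 3 (0.12), or hairpin 2 replicate 1 (0.14) or 2 (0.16).

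**Figure D2:**
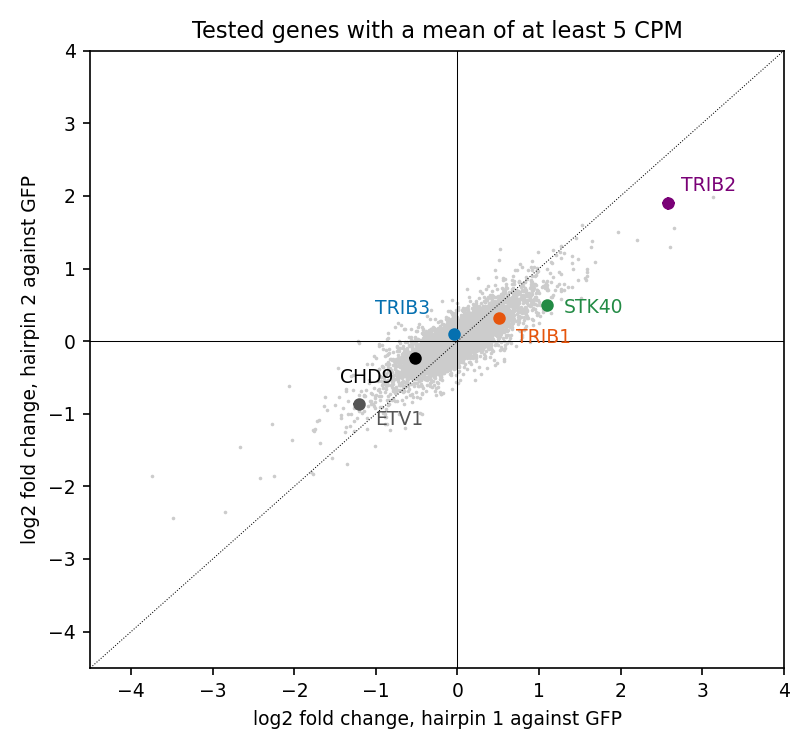
Log2 fold change against shGFP with hairpin 2 (vertical axis) and hairpin 1 (horizontal axis) for tested genes with a mean of at least 5 CPM (grey points); named genes are coloured, and the dotted line marks equal values. TRIB2 sits at 2.58 and 1.90 near the upper right edge of the cloud, TRIB1 at 0.51 and 0.32, and TRIB3 near the origin; both axes share the shGFP libraries.

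As a background for these values, all 6 CHD9 hairpin libraries lay above all 3 shGFP libraries for TRIB1 and TRIB2, 2 of the 3 family members, and for 15.5% of all genes tested. In the mean of both hairpins 22.3% of tested genes were called higher and 23.2% lower. For hairpin 1 these shares were 23.9% and 23.4%, and for hairpin 2 they were 17.2% and 18.5%. Nothing is read from the members' direction against shGFP, since it entered their choice. Between the hairpins, 29.2% of tested genes were called in either direction, against 3 of 3 Tribbles genes. The 3 libraries of hairpin 1 lay apart from the 3 of hairpin 2 for 39.6% of tested genes and for 3 of 3 Tribbles genes. The share of genes with all 3 groups apart is not given here. With 3 members, a count of 3 is a description of this family and no more.

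**Figure D3:**
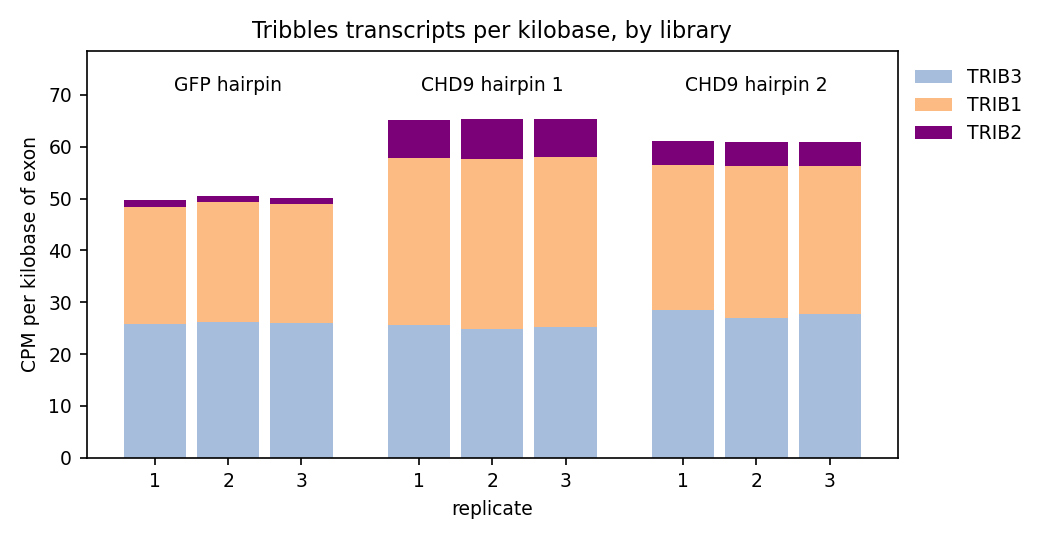
CPM per kilobase of exon for the 3 Tribbles genes, stacked by library for the 3 groups (n = 3 each), on a linear axis from 0. The stack is 50.1 in shGFP on average, 65.3 with hairpin 1 and 61.0 with hairpin 2, and TRIB2 is a thin band in shGFP that widens in both CHD9 hairpin groups.

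Levels were compared between the 3 genes per kilobase, with the union of annotated exons as the length. In control cells TRIB3 was the most abundant Tribbles transcript at 26.0 ± 0.182 CPM per kb, TRIB1 followed at 22.9 ± 0.332, and TRIB2 was far below both at 1.25 ± 0.0988 (SD, n = 3 each). Among the coding genes tested, these levels were above 86.1%, 84.1% and 23.3% of genes. With hairpin 1 the order of the upper pair was exchanged: TRIB1 measured 32.6 ± 0.325 CPM per kb, TRIB3 25.3 ± 0.400 and TRIB2 7.44 ± 0.251. With hairpin 2 TRIB1 measured 28.6 ± 0.660 CPM per kb, TRIB3 27.7 ± 0.714 and TRIB2 4.63 ± 0.0439, and here the TRIB1 and TRIB3 libraries overlapped, so their order is not set beyond the spread. With the longest transcript as the length, TRIB3 was above TRIB1 with hairpin 2, at 38.1 against 32.6 CPM per kb, while the order in the other groups stood. The level of TRIB2 was above 59.3% of coding genes with hairpin 1 and above 47.1% with hairpin 2.

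The makeup of the family shifted accordingly. TRIB2 made up 2.49% ± 0.216 (SD, n = 3) of the summed Tribbles level per kilobase in shGFP. Its share was 11.4% ± 0.369 with hairpin 1 and 7.59% ± 0.067 with hairpin 2. The share of TRIB3 was 51.9% in shGFP, 38.7% with hairpin 1 and 45.5% with hairpin 2, and that of TRIB1 was 45.6%, 49.9% and 46.9%. The summed level was 50.1 ± 0.394 CPM per kb in shGFP, 65.3 ± 0.0934 with hairpin 1 and 61.0 ± 0.141 with hairpin 2. Although TRIB2 had by far the largest fold, it remained the least abundant of the 3 genes in every library.

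Because the series is about RNA methylation, the longest transcript of each gene was searched for GGACT, a common form of the consensus at which METTL3 adds N6-methyladenosine. TRIB1 held 7 matches (1.93 per kb), TRIB3 held 4 (1.60 per kb) and TRIB2 held 3 (0.683 per kb), with a median of 0.932 per kb over 13051 coding genes. TRIB1 and TRIB3 were above 90.3% and 82.7% of those genes and TRIB2 above 32.6%. ATTTA, the core of AU-rich elements that shorten the life of many mRNAs, occurred 6 times in TRIB2 (1.37 per kb), 1 time in TRIB1 and 0 times in TRIB3, with a median of 1.01 per kb. No methylation or decay was measured in these libraries.

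The transcripts of the machinery on which Tribbles proteins act were examined through lists of genes, which were drawn up with earlier results of these data known and which overlap in several genes. COP1, the ubiquitin ligase that Tribbles proteins recruit, measured 63.9, 66.1 and 61.7 CPM in shGFP, hairpin 1 and hairpin 2 and did not pass in any of the contrasts (adjusted p = 0.97 in the mean of both hairpins). Of the 8 genes of the COP1 ligase and its Tribbles-like adaptor, all tested, 1 was called higher, 1 lower and 6 did not pass, with a median log2 fold change of 0.01 (against 0.00 over all genes tested). In the same contrast, the mean of both hairpins, 22.3% of all genes were called higher and 23.2% lower. CUL4B, a cullin scaffold, fell by 0.20 on the log2 scale (adjusted p = 7.2e-05). The gene called higher was STK40, a pseudokinase related to the Tribbles proteins that also carries a COP1-binding motif. STK40 measured 246, 253 and 244 CPM in shGFP, 534, 523 and 536 CPM with hairpin 1 and 350, 348 and 352 CPM with hairpin 2, with no overlap among the 3 groups. All CHD9 hairpin libraries lay above shGFP for 15.5% of all genes tested, and the 2 hairpins lay apart for 39.6%. STK40 had a log2 fold change of 0.80 (SE 0.02, adjusted p = 1.5e-30) in the mean, 1.10 with hairpin 1 and 0.50 with hairpin 2. The difference between the hairpins was 0.60 (adjusted p = 1.5e-23), in the same direction as those of TRIB1 and TRIB2.

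Of 13 listed COP1 substrates 11 were tested, and in the mean of both hairpins 4 were called higher, 3 lower and 4 did not pass (median log2 fold change 0.02). The shares over all genes were 22.3% higher and 23.2% lower. The values are transcript levels and do not show the amount of the proteins that COP1 degrades. The largest change was that of ETV1, an ETS factor with a role in prostate cancer. It measured 34.9, 30.6 and 33.9 CPM in shGFP, 13.6, 15.1 and 14.1 CPM with hairpin 1 and 17.8, 19.1 and 17.2 CPM with hairpin 2, with no overlap among the groups. The libraries of the 2 hairpins lay apart for 39.6% of all genes tested. ETV1 fell by 1.04 on the log2 scale (SE 0.06, adjusted p = 1.4e-19). In the mean the related ETV4 fell by 0.18, ETS2 rose by 0.19 and MTA1, a subunit of the NuRD complex, rose by 0.14. These 3 passed with hairpin 1 and not with hairpin 2, where their values were -0.06, 0.01 and 0.05, and all 3 differed between the hairpins (adjusted p = 5.1e-06, 7.2e-09 and 2.3e-06).

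All 5 tested genes of the C/EBP family passed in the mean of both hairpins, 3 higher and 2 lower, of 6 listed, where 22.3% and 23.2% of all genes were called higher and lower. With each hairpin alone 3 of the 5 passed. Of all genes, 23.9% and 23.4% were called higher and lower with hairpin 1, and 17.2% and 18.5% with hairpin 2. CEBPA, whose protein is the classic TRIB1 and TRIB2 substrate, rose by 0.22 (adjusted p = 0.00013). The rise was 0.37 with hairpin 1, while with hairpin 2 the value was 0.07 and did not pass, and the hairpins differed by 0.30 (adjusted p = 1.2e-05). CEBPB, another C/EBP factor, rose by 0.12 (adjusted p = 0.0053) in the mean and by 0.15 with hairpin 2 (adjusted p = 0.0032). With hairpin 1 its value of 0.09 did not pass (adjusted p = 0.070). CEBPD fell by 0.32 on the log2 scale (adjusted p = 5.1e-11), from 92.8 CPM to 77.4 and 71.3 CPM. DDIT3, which encodes CHOP, fell by 0.25 (adjusted p = 3.9e-05) in the mean and by 0.38 with hairpin 1. With hairpin 2 its value of -0.11 did not pass, and the hairpins differed by -0.27 (adjusted p = 0.00024). CEBPG, a dimer partner of ATF4, is reported outside the rule for named genes, after its values were seen. It measured 56.0, 53.3 and 82.7 CPM and was lower with hairpin 1 than with hairpin 2 by a log2 difference of -0.63 (adjusted p = 6.9e-17), the direction that TRIB3 also had.

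Of the 6 listed kinases that bind Tribbles proteins 5 were tested, and all 5 were called higher in the mean of both hairpins, against 22.3% of all genes (median log2 fold change 0.13). MAP2K4, a kinase of the JNK and p38 pathways, measured 24.6, 22.8 and 22.1 CPM in shGFP, 38.0, 37.1 and 37.6 CPM with hairpin 1 and 32.0, 35.6 and 34.3 CPM with hairpin 2. It rose by 0.63 (SE 0.05, adjusted p = 8.0e-14), and its CHD9 hairpin libraries were all above the controls, as for 15.5% of all genes tested. The others moved by small amounts: AKT2 by 0.19 (adjusted p = 3.0e-09), MAP2K1, which encodes MEK1, by 0.13 (adjusted p = 0.0017), AKT1 by 0.11 (adjusted p = 0.00026) and MAP2K7, the second activator of JNK, by 0.07 (adjusted p = 0.044). The count rested in part on 1 library: without shGFP replicate 3 it was 3 of 5, and MAP2K1 (log2 0.09) and MAP2K7 (log2 0.04) no longer passed. MAP2K7 also did not pass under the DESeq2 test, without the low-count filter, or without hairpin 1 replicate 1 (log2 0.06) or 2 (log2 0.07) or hairpin 2 replicate 2 (log2 0.07). With hairpin 2 alone 2 of the 5 passed, and with hairpin 1 all 5 did. Of all genes 17.2% were called higher with hairpin 2 and 23.9% with hairpin 1.

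**Figure D4:**
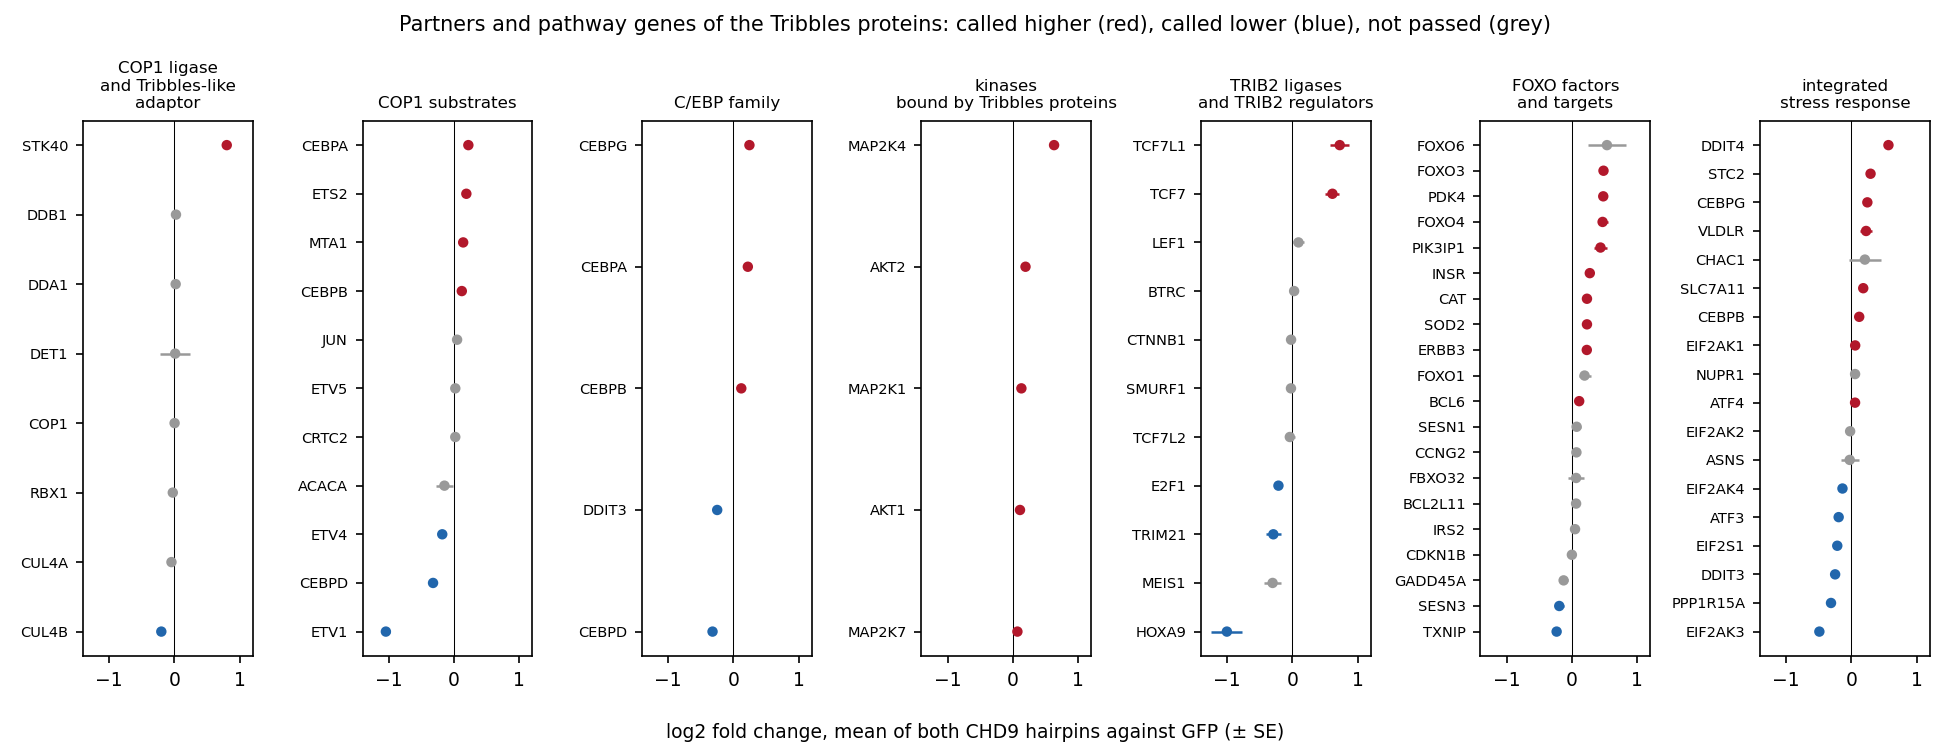
Log2 fold change with its standard error, averaged over both CHD9 hairpins and relative to shGFP, for each tested gene of 7 lists of Tribbles partners and pathway genes; red points were called higher, blue points lower, and grey points did not pass. STK40 at 0.80 and ETV1 at -1.04 lie farthest from 0 in the first and second lists, and the 5 kinases are all on the right of the line.

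TRIB2 is itself degraded through ubiquitin ligases and is a target of several transcription factors. Of 12 such genes 11 were tested, of which 2 were called higher, 3 lower and 6 did not pass in the mean of both hairpins (median log2 fold change -0.02). Over all genes 22.3% were called higher and 23.2% lower. Among the ligases, BTRC had a log2 fold change of 0.03 and SMURF1 of -0.02, and neither passed. TRIM21 measured 5.83, 4.67 and 4.93 CPM, with a log2 fold change of -0.29 whose adjusted p of 0.036 did not hold under the DESeq2 test, without the low-count filter, or without shGFP replicate 2 (log2 -0.24), shGFP replicate 3 (log2 -0.32), hairpin 1 replicate 3 (log2 -0.23) or hairpin 2 replicate 2 (log2 -0.25). Among the regulators, TCF7 and TCF7L1, transcription factors of the Wnt pathway, rose by 0.61 (adjusted p = 5.8e-06) and 0.72 (adjusted p = 6.7e-05), both at low levels of 2.54 to 7.01 CPM. E2F1, a cell cycle factor that drives TRIB2 in leukaemia cells, fell by 0.21 on the log2 scale (adjusted p = 8.1e-08). HOXA9, a homeobox factor of leukaemia that works with MEIS1, fell by 1.00 (adjusted p = 0.00046), from 1.85 CPM to 0.932 and 0.884 CPM. So the listed regulators of TRIB2 that passed went in both directions.

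Of 21 FOXO factors and FOXO target genes 20 were tested, and in the mean of both hairpins 9 were called higher, 2 lower and 9 did not pass (median log2 fold change 0.15), against 22.3% and 23.2% of all genes called higher and lower. FOXO3, the factor that TRIB2 restrains by keeping it out of the nucleus, measured 40.4, 37.2 and 36.7 CPM in shGFP, 57.4, 55.1 and 56.2 CPM with hairpin 1 and 49.8, 47.5 and 54.0 CPM with hairpin 2. Its transcript rose by 0.48 (SE 0.04, adjusted p = 1.6e-12), with all CHD9 hairpin libraries above the controls, as for 15.5% of all genes tested. FOXO4 rose by 0.47 (adjusted p = 1.2e-06), and FOXO1 had a value of 0.19 that did not pass (adjusted p = 0.080). It did pass without shGFP replicate 3 (log2 0.28) or hairpin 2 replicate 1 (log2 0.22). Among the targets, PDK4, a kinase that turns off pyruvate dehydrogenase, rose from 111 CPM to 159 and 151 CPM (log2 fold change 0.48, adjusted p = 1.7e-18). TXNIP, a thioredoxin inhibitor, and SESN3, a sestrin, were the 2 called lower, and both are named after their values were seen. TXNIP fell by 0.23. The SESN3 value of -0.19 did not pass without shGFP replicate 3 (log2 -0.08).

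Genes of the integrated stress response, which induces TRIB3, did not move one way. Of 20 listed genes 18 were tested, and in the mean of both hairpins 8 were called higher, 6 lower and 4 did not pass (median log2 fold change 0.06). The shares over all genes were 22.3% higher and 23.2% lower. Hairpin 1 and hairpin 2 differed in this list. With hairpin 1 there were 4 called higher and 7 lower (median -0.13), against 23.9% and 23.4% of all genes. With hairpin 2 there were 8 higher and 3 lower (median 0.09), against 17.2% and 18.5% of all genes. In the direct test of hairpin 1 against hairpin 2, 3 of the 18 were called higher and 10 lower (median -0.16), against 29.2% of all genes called in either direction and a median over all genes of 0.00. ATF4, the transcription factor at the centre of the response, measured 419, 412 and 460 CPM in shGFP, hairpin 1 and hairpin 2. It was lower with hairpin 1 than with hairpin 2 by a log2 difference of -0.16 (adjusted p = 2.8e-06), as TRIB3 was by -0.13. SLC7A11, the cystine transporter induced by ATF4, is named after its values were seen. It had a log2 fold change of -0.19 with hairpin 1 and 0.55 with hairpin 2. Opposite in direction to TRIB3 were the 3 genes called higher with hairpin 1 than with hairpin 2. They were VLDLR (log2 difference 0.61, adjusted p = 2.8e-06), DDIT4 (0.23, adjusted p = 0.0046) and PPP1R15A (0.16, adjusted p = 0.015). VLDLR is likewise named after its values were seen. The members with the largest changes in the mean passed in the same direction with each hairpin: EIF2AK3, which encodes the endoplasmic reticulum stress kinase PERK, fell by 0.49 on the log2 scale (adjusted p = 4.9e-09), and PPP1R15A, a phosphatase subunit that ends the response, fell by 0.31 (adjusted p = 5.5e-08). DDIT4, an inhibitor of mTORC1, rose by 0.57 (adjusted p = 1.3e-10).

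TRIB2 has been tied to loss of the luminal state in prostate cancer, through the neural factor POU3F2 (BRN2) and SOX2, so lineage genes were listed beside it. Of 11 such genes 8 were tested, and 3 were called higher, 1 lower and 4 did not pass in the mean (median log2 fold change 0.02). Over all genes 22.3% were called higher and 23.2% lower. POU3F2 measured 8.28, 6.76 and 6.49 CPM and had a log2 fold change of -0.33 (adjusted p = 0.0067), a call that was lost without shGFP replicate 3 (log2 -0.23). SYP, a synaptic vesicle gene used as a neuroendocrine marker, went the other way and had the largest change of the list, with a log2 fold change of 0.68 (adjusted p = 0.00045) from 2.14 CPM to 4.71 and 2.54 CPM. It is named after its values were seen. Its rise was 1.13 with hairpin 1 (adjusted p = 4.6e-07), while the value of 0.23 with hairpin 2 did not pass, and the hairpins differed by 0.90 (adjusted p = 2.8e-05). SOX2 was near the detection limit, at 0.453, 0.405 and 0.459 CPM, and did not pass. KLK3, which encodes prostate-specific antigen, rose by 0.50 (adjusted p = 1.6e-12), from 31.9 CPM to 45.2 and 44.8 CPM.

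The 8 luminal prostate markers were all detected in this line, and in the mean of both hairpins 5 of 8 were called higher, 0 lower, and 3 did not pass, against 22.3% and 23.2% of all genes called higher and lower. With hairpin 1 all 8 were called higher, against 23.9% of all genes. With hairpin 2 there were 5 higher and 2 lower, against 17.2% and 18.5% of all genes. The 2 called lower were the luminal keratins KRT8 (log2 0.11 with hairpin 1 and -0.09 with hairpin 2) and KRT18 (0.11 and -0.07), named after their values were seen. In the mean neither passed, and both differed between the hairpins (adjusted p = 1.7e-08 and 4.8e-07). The summed level of all 8 was 1518 to 1549 CPM in shGFP, 1900 to 1915 CPM with hairpin 1 and 1748 to 1775 CPM with hairpin 2. It thus had the same order of groups as TRIB1 and TRIB2. HOXB13, a prostate homeobox factor, rose by 0.64 on the log2 scale (adjusted p = 1.0e-25) and KLK2, a kallikrein, by 0.55 (adjusted p = 6.9e-18). The 10 markers of other cell types summed to 9.37 to 9.94 CPM in shGFP, 10.0 to 10.2 CPM with hairpin 1 and 9.68 to 11.0 CPM with hairpin 2. Of these 10, 3 had enough counts to be tested, CD3E had no count in any library, and the highest value of any was 7.73 CPM. Of the tested markers, COL1A1, a collagen of fibroblasts, rose by 0.52 (adjusted p = 6.0e-05) and ACTA2, smooth muscle actin, fell by 0.94 on the log2 scale (adjusted p = 2.7e-05), both from levels under 10 CPM. The part of these markers in the Tribbles levels was not tested.

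Among 37 other pseudokinase genes 32 were tested, and 12 were called higher, 9 lower and 11 did not pass in the mean of both hairpins (median log2 fold change 0.11). Over all genes tested, 22.3% were called higher and 23.2% lower. CAMKV, a calmodulin-binding pseudokinase of neurons, rose by 1.73 (adjusted p = 3.0e-16), from 2.67 CPM to 10.4 and 7.50 CPM. NPR1, the receptor for atrial natriuretic peptide, rose by 1.22 (adjusted p = 1.0e-12), and PRAG1, a scaffold of the PEAK family, fell by 1.01 on the log2 scale (adjusted p = 4.1e-10). The 1.73 of CAMKV was the highest among the 32. The value of TRIB2 is not ranked among them, since its difference from shGFP entered its choice.

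The genes whose pattern over the 9 libraries was most like each member were ranked by the root-mean-square difference of centred log2 CPM. The ranking covered 9944 tested genes with a mean of at least 5 CPM over all libraries. Genes without a symbol, or with a symbol that has a dot or a clone-type form, were left out. That form took in symbols ending in P and digits, so COP1 was also left out. Among the 5 nearest to TRIB2 were the cytochrome P450 genes CYP1A2 (0.25) and CYP4F22 (0.25), CAMKV (0.28) and STMN3, a stathmin of neurons (0.32). CYP1A2, CYP4F22 and CAMKV were at 3.17, 2.16 and 2.67 CPM in shGFP and reached that mean only through the CHD9 hairpin groups, so the filter favours this pattern among scarce genes. These 4 had their highest level with hairpin 1 and an intermediate one with hairpin 2. The nearest to TRIB1 were SCARA3 at 0.02, PLXNB2, SLC25A37, KLHL42 and DFFA, which spanned 0.02 to 0.04. The nearest to TRIB3 were CYC1 at 0.02, PTCD3, THUMPD3, PHB2 and COL7A1, none above 0.03. CYC1, PTCD3 and PHB2 encode mitochondrial proteins, a subunit of respiratory complex III, a factor of the mitochondrial ribosome and a prohibitin. A small value means little here where a gene barely varies, as TRIB3 does, and these distances share the same 9 libraries and describe them only.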

How the data were processed

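Polyadenylated RNA of 22Rv1 cells was sequenced in 9 libraries, 3 per group, from a directional kit per the labels' protocols. The authors deposited 1 table of raw read counts per gene, with no normalisation. Per the submitters' processing notes, Trim Galore, STAR, hg38 and DESeq2 were used. Tool versions, the program that counted reads, its handling of strand and the gene annotation are not given in these sources, so reads of overlapping or antisense genes may not have been separated. Samples were grouped by title and columns matched by name. Symbols were found for 60659 of 67071 identifiers, and coordinates and exonic lengths come from GENCODE 29 on GRCh38.

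With filterByExpr (edgeR 4.0.16, R 4.3.3, minimum count 10), 16855 genes remained. Libraries were scaled by TMM, and a quasi-likelihood model with 1 mean per group was fitted to all 9 libraries. The contrasts set the mean of the hairpins, and each of them, against shGFP and the hairpins against each other, with Benjamini-Hochberg adjustment over all genes at 0.05. Log2 CPM for likeness used a prior count of 2. Libraries held 18911142 to 31968602 counts, and of the members TRIB2 in shGFP had the fewest, 117 to 150. The edgeR fit was tested on simulated counts.

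The members and gene lists were chosen with earlier results of these data known. Named genes are the members and CHD9, a fixed set of genes by role, up to 3 members per list of at least 1 CPM called alike in the mean and with each hairpin, the 3 nearest tested genes on each side of a member, and the 5 genes of most similar pattern; some genes that the rule gives are not reported here. Alternatives were DESeq2 1.42.0 size factors in edgeR, its Wald test, no low-count filter, an adjusted p under 0.01 for counts of calls, a minimum of 1 CPM in 6 libraries, the replicate number as a block, leaving out each library, and the longest transcript as the gene length.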

Additional observations from a re-analysis of the deposited data

Results flagged for a closer look

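For each Tribbles gene the effect of hairpin 1 and that of hairpin 2, both set against the same shGFP libraries, differed by the edgeR test of the difference itself. For TRIB2 the log2 difference, hairpin 1 minus hairpin 2, was 0.69 (adjusted p = 4.1e-12), with all 3 hairpin 1 libraries above all 3 of hairpin 2. For TRIB1 it was 0.19 (adjusted p = 6.6e-06), again with hairpin 1 above hairpin 2 in every library. For TRIB3 it was -0.13 (adjusted p = 0.0025), with hairpin 1 below hairpin 2 in every library, and its values against shGFP had opposite signs. A difference between the hairpins was called for 29.2% of all genes tested. The levels with both hairpins were known when the 3 genes were chosen, so these p-values are not free of that choice. CHD9 itself was lower with hairpin 1 than with hairpin 2 by a log2 difference of -0.28, and its part in these differences was not tested.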

How the results depend on the processing

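The 3 differences between the hairpins kept their direction and stayed past the threshold in all 14 alternatives each, with adjusted p from 1.0e-22 to 1.6e-09 for TRIB2, 1.4e-06 to 0.00016 for TRIB1 and 0.0017 to 0.020 for TRIB3. The values against shGFP, which carry no test, kept their sign in the same alternatives: 2.18 to 2.29 for TRIB2, 0.41 to 0.43 for TRIB1 and 0.02 to 0.04 for TRIB3 in the mean of both hairpins, as log2 fold changes. The number of kinases called, 5 in the fit reported, was 3 to 5 when 1 library was left out, with the low value without shGFP replicate 3. Other counts also depended on single libraries. Other pseudokinases called in either direction were 21 in the fit reported and 17 without shGFP replicate 1 or without shGFP replicate 3. Stress response genes called were 14 in the fit reported and 11 without shGFP replicate 1. Same-numbered libraries did not deviate together (correlations of -0.074 to 0.062 over 9 pairs). The labels do not say whether these were made together, and such low correlations cannot show that they were not. With the replicate block 7669 genes were called in the mean of both hairpins, against 7675 without it, and 4932 against 4921 between the hairpins. At an adjusted p under 0.01, 6084 genes were called in the mean and 3423 between the hairpins. Depth limits the genes with few counts in a library, such as SOX2 (3 to 27), HOXA9 (14 to 45) and ACTA2 (30 to 83).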
